A study of Mus musculus with 4 samples.

Results

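The regions described here are stretches of 3000 bases upstream of highly expressed genes that lie far from any other gene. A region was taken when it was counted on both strands, lay on chromosomes 1 to 19, and held no other gene of the gene table inside it or within 10 kb beyond its outer edge. Members were also chosen by a measured value, a mean of at least 1000 raw reads of their own gene over the 2 wild-type libraries. These conditions were met by 2160 of the 30166 upstream regions counted, and 16724 autosomal regions met the distance condition alone. The data come from strand-selected RNA sequencing of testes from B6D2F1 mice at postnatal day 17 (P17). The genotypes compared were labelled Dis3 WT (control) and Dis3 KO (conditional knockout), with 2 libraries of each. The labels do not name the Cre driver or the cells in which Dis3 is deleted. They give the molecule as polyA RNA, and the protocol states priming with both random and poly(T) primers and depletion of targeted transcripts.

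RNA polymerase II transcribes many active promoters in both directions. The upstream, opposite-strand products, known as promoter upstream transcripts or PROMPTs, are usually short and capped, and are terminated early at poly(A) sites. DIS3 is a catalytic subunit of the nuclear RNA exosome, the complex that degrades such transcripts from their 3′ end, and reads on the strand opposite to the gene (antisense) in these regions are the usual readout of them. Reads on the strand of the gene (sense) were counted over the same bases.

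The promoter-proximal ends of 4 regions among the largest antisense rises with a mean of at least 20 reads are shown first, because the antisense reads described below were counted over them and the bases before them. They are written 5′ to 3′ on the strand of the gene, up to the region's edge nearest the gene, from RefSeq on GRCm38.p6. That edge borders the gene in Cgn, Pla2g6 and Rps7, but not in Dazl, as the gene table gives it. Capitals mark the motifs GGGCGG (GC box) and CCAAT, and their reverse complements CCGCCC and ATTGG.
Cgn: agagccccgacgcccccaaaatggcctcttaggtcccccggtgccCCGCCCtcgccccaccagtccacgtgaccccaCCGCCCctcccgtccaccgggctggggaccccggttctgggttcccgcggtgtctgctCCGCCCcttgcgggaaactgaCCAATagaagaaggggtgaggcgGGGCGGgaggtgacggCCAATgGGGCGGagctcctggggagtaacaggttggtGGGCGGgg
Dazl: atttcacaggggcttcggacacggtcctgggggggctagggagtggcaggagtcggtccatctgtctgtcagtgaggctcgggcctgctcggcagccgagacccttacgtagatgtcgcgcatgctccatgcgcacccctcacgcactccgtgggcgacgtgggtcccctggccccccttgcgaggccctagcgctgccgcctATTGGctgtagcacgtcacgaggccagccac
Pla2g6: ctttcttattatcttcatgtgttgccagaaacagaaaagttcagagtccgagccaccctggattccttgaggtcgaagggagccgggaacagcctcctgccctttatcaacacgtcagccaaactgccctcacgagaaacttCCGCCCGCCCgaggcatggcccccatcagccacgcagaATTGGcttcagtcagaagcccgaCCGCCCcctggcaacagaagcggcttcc
Rps7: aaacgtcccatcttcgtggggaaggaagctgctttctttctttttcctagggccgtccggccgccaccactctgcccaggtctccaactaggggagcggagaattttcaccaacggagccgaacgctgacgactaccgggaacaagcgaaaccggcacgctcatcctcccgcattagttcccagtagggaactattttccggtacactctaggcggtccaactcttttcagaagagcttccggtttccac
The printed bases lie at chr3:94786493-94786732 (Cgn), chr17:50293637-50293870 (Dazl), chr15:79328391-79328621 (Pla2g6) and chr12:28635954-28636203 (Rps7), all on the minus strand. They hold 19, 19, 12 and 18 CG pairs in 240, 234, 231 and 250 bases. The stretches upstream of Cgn, Pla2g6 and Dazl hold 6, 3 and 0 matches to the GC box on either strand, and Rps7 holds none of the marked motifs. None of the 4 holds AATAAA (the poly(A) signal), GTAAGT (a splice donor match) or TATAAA (the TATA box) on either strand.

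The gene tables held 31031920 and 40329170 reads in the WT libraries and 17663416 and 19255782 in the KO libraries. The antisense totals over all upstream regions were close in the 4 libraries, from 384084 to 413505 reads. Dis3 itself was at 80.2 and 80.7 CPM (reads scaled to the library size) in WT and at 39.6 and 42.9 in KO, a log2 fold change of -0.96 (SE 0.07, edgeR adjusted p = 2.34e-09). The labels do not say which exons are deleted, so remaining Dis3 reads were not split by exon. The labels do not state separate animals for the 2 libraries of a genotype, so p-values reflect only how much these libraries vary, which may be technical.

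A low level of reads was present upstream of genes that were not expressed, and it was higher in KO. Over the 2629 isolated regions whose own gene had a mean below 1 read, the interquartile mean was 6.23 antisense reads per region in WT replicate 1, 5.85 in WT replicate 2, 7.36 in KO replicate 1 and 8.29 in KO replicate 2. Scaled to gene reads, this background was 2.21-fold higher in KO than in WT on the antisense strand and 2.19-fold higher on the sense strand. Values are therefore given both as counted and after subtraction of this background from each library and strand.

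The regions of highly expressed genes carried more antisense reads in both KO libraries than in either WT library. Scaled to 10M gene reads per library, the interquartile mean over the 2160 regions was 5.91 and 5.08 antisense reads per region in the WT libraries, against 10.7 and 10.2 in the KO libraries. After background subtraction the antisense level was 3.67 ± 0.18 in WT and 6.44 ± 0.29 in KO (SD, n = 2 each), a ratio of 1.75. The sense level was 2.20 ± 0.11 in WT and 2.84 ± 0.10 in KO on the same scale (SD, n = 2 each), a ratio of 1.29. In each strand the 2 genotypes did not overlap. These levels are a description with no test. Because whole testes were used, fewer cells of a type and less RNA per cell cannot be told apart.

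**Figure D1:**
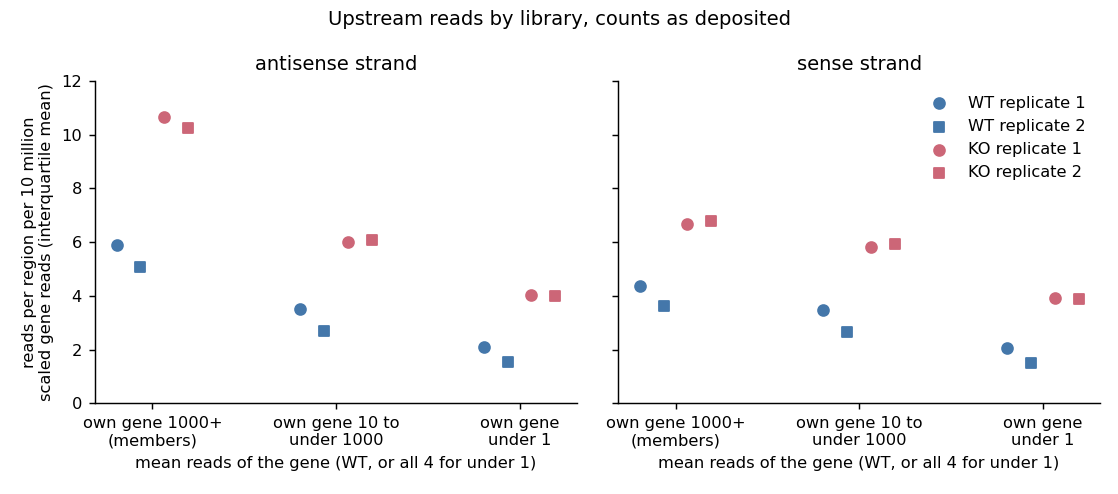
Interquartile mean of upstream reads per region per 10M scaled gene reads, by library (colour, genotype; shape, replicate), for the antisense and the sense strand and for 3 classes of isolated regions by the reads of their own gene. Both KO libraries lie above both WT libraries in every class, the class of silent genes included (4.02 and 4.01 against 2.10 and 1.54 on antisense).

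The balance between the strands differed by genotype as well. After background subtraction, antisense exceeded sense 1.67-fold in both WT libraries, 2.40-fold in KO replicate 1 and 2.14-fold in KO replicate 2. More antisense than sense reads were counted in 1283 and 1319 of the 2160 regions in the WT libraries, and in 1483 and 1462 in the KO libraries.

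The antisense ratio changed little with the expression of the gene. It was 1.73 for the 713 regions whose gene had 1000 to 2000 WT reads, 1.76 for the 869 with 2000 to 5000 and 1.78 for the 578 with 5000 or more. The sense ratio over the same classes was 1.36, 1.29 and 1.17. Isolated regions of genes with 10 to under 1000 WT reads, 4971 in number, had net ratios of 1.58 on antisense and 1.53 on sense. Whether these ratios differ between classes was not tested. With the next gene 10 to 20 kb away the antisense ratio was 1.79, and with it 20 kb or more away it was 1.74.

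Region by region, antisense reads were tested with edgeR's quasi-likelihood test at an adjusted p under 0.05. Of the 2159 members with an antisense read, 505 rose in KO and 10 fell, while 1644 showed no call. Over all regions tested, 11.8% rose and 0.134% fell, and the shares of the 2160 members were 23.4% and 0.463%. Members carried more upstream reads than isolated regions of less expressed genes, so these shares were not taken at like read depth. Among regions with a mean of at least 20 antisense reads, fitted alone, 433 of 961 members and 1060 of 2663 regions in all rose. Of the 2334 tested regions of silent genes 211 rose (9.04%). The median log2 fold change of the members was 0.87, below that of all regions (0.99) and of the silent regions (1.07). The count depends on how background is treated. After background subtraction 61 members rose and 1 fell, where 0.596% of all regions tested rose and 0.0234% fell. Without any one library, or with a replicate block, this subtracted count was 0, and edgeR's earlier form of the quasi-likelihood test, in place of the one with adjusted deviances used here, gave 183. All 61 were among the 505, and they had a median of 30 WT and 75.5 KO reads. With libraries scaled on the upstream reads themselves, which removes the shift that silent regions show, 8 members rose and 40 fell, and the median log2 fold change of the members was -0.11. Those that rose there included Cgn, Dazl, Zbtb16, Arl14epl, Dynll2, Pla2g6 and Snapc3, and all 8 were among the 61. The count also moved with the library left out, from 136 without KO replicate 1 and 176 without KO replicate 2 to 293 without WT replicate 2 and 631 without WT replicate 1. Of the 505, 84 rose in every one of these 4 fits. DESeq2 called 227, all among the 505.

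**Figure D2:**
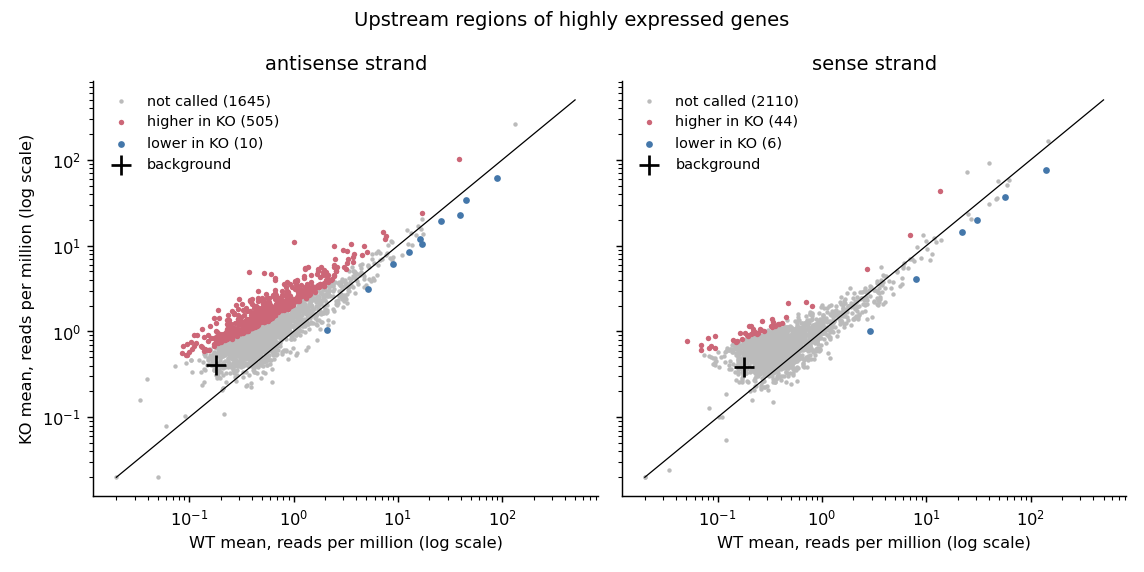
Mean CPM of the 2 KO libraries against that of the 2 WT libraries for each member, antisense left and sense right, on log axes, with values under 0.02 drawn at 0.02. Points are coloured by the edgeR call on counts as deposited, the cross marks the background of silent regions and the line marks equality. Called antisense rises (505) lie above the line, and the 10 falls lie mostly among the regions with more reads.

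**Figure D3:**
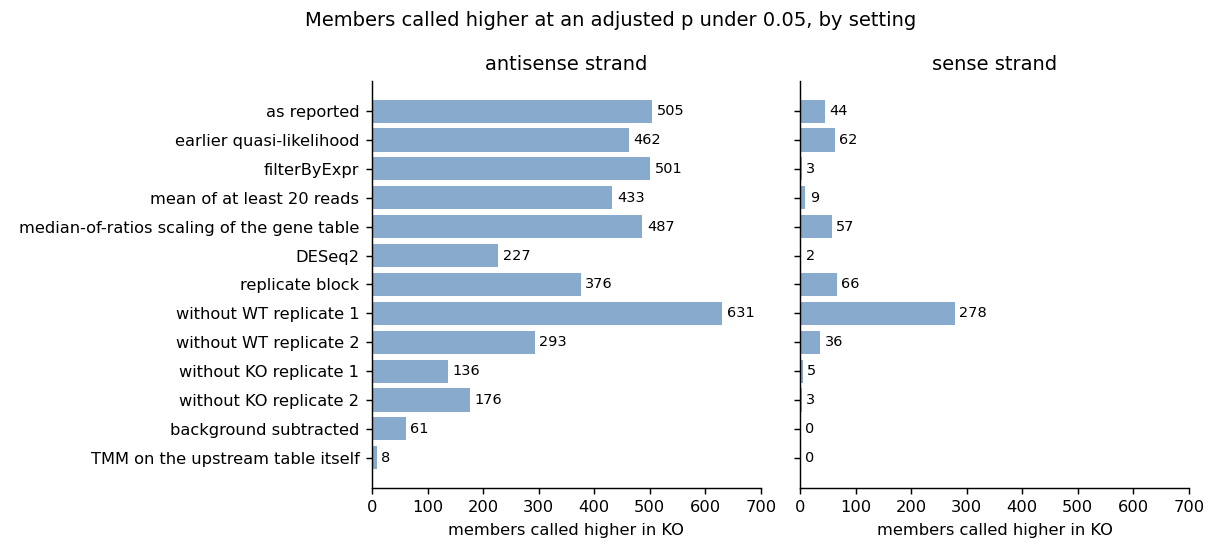
Number of members called higher in KO at an adjusted p under 0.05 under the 13 settings drawn, antisense left and sense right. Antisense counts in these run from 8 to 631 and sense counts from 0 to 278.

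The largest antisense rise among the called members was upstream of Cgn, which encodes cingulin, a tight junction protein. The region at chr3:94786493-94789492 held 9 and 17 antisense reads in WT and 89 and 104 in KO, or 0.304 and 0.447 CPM against 4.86 and 5.03. The log2 fold change was 3.68 (SE 0.34, edgeR adjusted p = 6.38e-19). Its sense reads, 15 and 17 against 11 and 18, did not pass the test (adjusted p = 0.425). The Cgn gene itself was at 267 and 248 CPM in WT and 293 and 269 in KO (log2 fold change 0.13). WT reads of the own gene chose the members, so own-gene values of named regions are a description only.

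Dazl encodes an RNA-binding protein of germ cells. Its region (chr17:50293637-50296636) held 33 and 34 antisense reads in WT and 240 and 186 in KO, the most reads among the 8 rises named here. The log2 fold change was 3.46 (SE 0.25, edgeR adjusted p = 2.38e-29), while that of the gene was -0.31, as a description only. Sense reads were 51 and 73 in WT and 43 and 33 in KO, a log2 fold change of 0.10 once library size is taken into account. Zbtb16, a transcription factor of undifferentiated spermatogonia, had 19 and 15 antisense reads in WT and 82 and 104 in KO (log2 fold change 3.22). Kit, the receptor tyrosine kinase of differentiating spermatogonia, had 11 and 10 in WT and 33 and 50 in KO (2.75). Of the 8 largest rises among members with a mean of at least 20 reads, 3 lay upstream of genes of the spermatogonial list. That list holds 4 members, the fourth (Etv5) was not called, and whether the lists differ was not tested. Below a mean of 20 reads, Lancl1 (4 and 8 reads in WT, 27 and 29 in KO) had a log2 fold change of 2.99, above that of Kit.

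The other 4 were spread over unrelated genes. Dynll2, a dynein light chain, had 7 and 14 antisense reads in WT and 46 in each KO library (2.92). Pla2g6, a calcium-independent phospholipase, had 13 and 29 in WT and 94 and 85 in KO (2.90). Rps7, a protein of the small ribosomal subunit, had 12 and 6 in WT and 41 and 38 in KO (2.90). Arl14epl had 5 and 8 in WT and 30 and 40 in KO (3.19), in a region that does not border the gene as the gene table gives it. WT reads of Arl14epl lay near the background of 6.23 and 5.85 reads. After background subtraction 7 of the 8 kept their call, with adjusted p from 0.000883 for Dazl to 0.0226 for Arl14epl, and Rps7 had an adjusted p of 0.0548 with a log2 fold change of 4.14. Sense reads of the 8 regions passed the test in none.

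**Figure D4:**
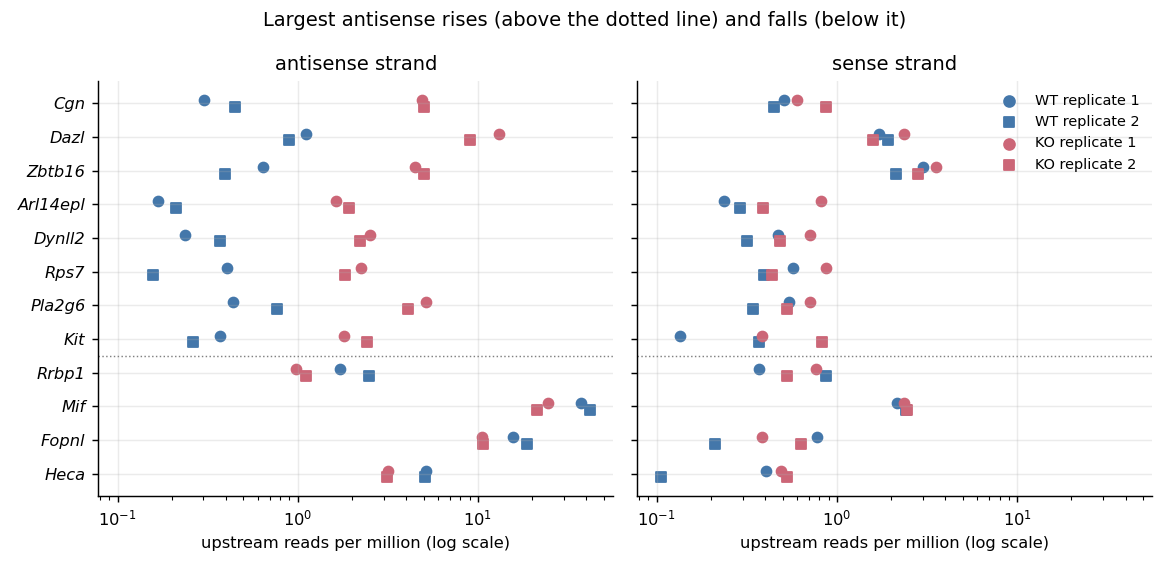
Upstream CPM in each library (colour, genotype; shape, replicate; log axis) for the 8 largest called antisense rises and the 4 largest falls among members with a mean of at least 20 reads. On antisense the KO points of Cgn lie at 4.86 and 5.03 CPM against 0.304 and 0.447 in WT, while on sense they lie between 0.447 and 0.871 CPM.

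The 505 rises were mostly of moderate size. Their log2 fold changes ran from 0.47 to 3.68 with a median of 1.62, and 115 were above 2, 353 between 1 and 2 and 37 below 1. A mean of at least 20 reads was reached by 338 of them, and 37 had a WT mean at or below the background. The CPM of the genotypes did not overlap in 504, which follows almost from the call itself and is no further support. As a description only, since WT reads of the own gene chose the members, the own genes fell in 249 cases, rose in 39 and were not called in 217. Of the own genes of the other 1655 members, 673 fell, 211 rose and 771 were not called. Over all genes tested 20.3% fell and 11.6% rose. Whether the 505 differ from the other members was not tested.

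Antisense falls were few and lay mostly in regions with many reads. Upstream of Mif, a cytokine gene, 1107 and 1589 antisense reads in WT and 449 and 440 in KO corresponded to 37.4 and 41.8 CPM against 24.5 and 21.3. The log2 fold change was -0.79 (SE 0.14, edgeR adjusted p = 2.02e-05), and it was the one fall that kept its call after background subtraction (adjusted p = 0.0246). Fopnl, a gene of centrosomes and cilia, had 461 and 713 reads in WT and 192 and 220 in KO (log2 fold change -0.70). Heca had 153 and 193 against 58 and 65 (-0.70). Rrbp1, a ribosome-binding protein of the endoplasmic reticulum, had 51 and 94 against 18 and 23 (-1.01, adjusted p = 0.0491). Gstt2 and Mroh4, both among the 5 regions with the most antisense reads, also fell, by 0.55 and 0.42 on the log2 scale. Without WT replicate 2 none of the 10 falls was called, and Mif had an adjusted p of 0.0875. DESeq2 and the replicate block each called 3 falls, and Rrbp1 and Heca passed in neither. Without KO replicate 2, 3 falls were called, and without WT replicate 1, 5 were. The other falls were upstream of Zhx1, Stk35, Zmym4 and Cul1, named after their values were seen.

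The 5 regions with the most antisense reads were upstream of Gm10800, Gstt2, Gm21738, Mroh4 and Mif. Gm10800 and Gm21738, with Gm10801, are predicted genes that overlap satellite repeats, so counts there are uncertain. The Gm10800 region held 6934 and 1184 antisense reads in WT and 8022 and 1848 in KO. Its replicates differed more than its genotypes, and it did not pass the test (adjusted p = 0.702). Gm21738 had 1360 and 1199 against 2126 and 1858 (log2 fold change 1.41, adjusted p = 1.21e-19).

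On the sense strand 44 of 2159 members rose and 6 fell, that is 2.04% and 0.278%, where 2.97% and 0.0954% of all regions did. The members' share of rises was thus near the background share. After background subtraction no member rose or fell by edgeR in its adjusted form, with 122 higher and 51 lower at an unadjusted p under 0.05. The earlier form called 4 rises there (Zc3h4, Gm10801, Hmga1b and Gm21738). By the adjusted form 1 of all regions tested rose (0.00389%). Without WT replicate 1, 278 members rose, and without KO replicate 1 or 2, 5 and 3 did. DESeq2 called 2 rises (Zc3h4 and Hmga1b) on the counts as deposited. Of the 44, 14 had a WT mean at or below the background, and 15 were also higher on antisense.

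A sense rise also called by DESeq2 was upstream of Zc3h4, whose protein restrains transcription of short upstream RNAs. Sense reads were 201 and 272 in WT and 234 and 279 in KO, or 6.78 and 7.16 CPM against 12.8 and 13.5. The log2 fold change was 0.91 (SE 0.20, edgeR adjusted p = 0.0113). Antisense reads of the same region rose too, from 31 and 25 to 70 and 59 (log2 fold change 1.99). Ccnd1, encoding cyclin D1, had 73 and 112 sense reads in WT and 92 and 115 in KO (0.96, adjusted p = 0.0297). Hmga1b, a near-identical copy of Hmga1 and so uncertain, had 15 and 17 against 31 and 54 (2.18). Id2, an inhibitor of helix-loop-helix factors, had 23 and 32 against 40 and 36 (1.27). Cp, encoding ceruloplasmin, had 9 and 23 against 28 and 29 (1.64). Trerf1 had 32 and 12 against 47 and 37 (1.69), and Gm10801 had 502 and 384 against 1016 and 623 (1.66).

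The 4 largest sense falls were upstream of genes that were themselves lower in KO, as a description only. Cox8c, a cytochrome c oxidase subunit, had 4340 and 5148 sense reads in WT and 1598 and 1313 in KO, or 146 and 136 CPM against 87.4 and 63.5. The log2 fold change was -0.90 (SE 0.13, edgeR adjusted p = 3.44e-06), and the gene fell by 0.77 on that scale. Pgam2, a phosphoglycerate mutase, had 99 and 91 against 19 and 20 (-1.51), and its gene fell by 1.20. Ccne2, encoding cyclin E2, had 229 and 316 against 82 and 78 (-0.96), with the gene down by 0.48. Ipo5, a nuclear import receptor, had 913 and 1148 against 378 and 387 (-0.63), with the gene down by 0.48. The other 2 were Gm6567 and 4933435G04Rik, named after their values were seen.

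The difference between the strands was tested region by region as the antisense log2 change minus the sense log2 change. Among the 2160 members the antisense change was larger in 13 and the sense change in 2, or 0.602% and 0.0926%, where 0.119% and 0.014% of all regions were called. The 13 became 2 without KO replicate 1, 1 without KO replicate 2 and 24 without WT replicate 1. The 2 became 0 without either KO library and 6 without WT replicate 1. On simulated data this test recovered 9% of 2-fold and 83% of 4-fold strand differences. The simulated differences lay only in regions with a mean of at least 20 reads on each strand. After background subtraction none was called by edgeR, with 82 and 29 members past an unadjusted p of 0.05 in the 2 directions.

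The largest strand difference in favour of antisense was upstream of Wdr75, a protein of ribosomal RNA processing. Antisense reads were 19 and 6 in WT and 43 and 38 in KO, while sense reads were 27 and 20 in WT and 8 and 7 in KO. The difference of the log2 changes was 3.41 (SE 0.74, edgeR adjusted p = 0.0117). It was 3.35 for Dazl (adjusted p = 5.38e-06), 3.18 for Tmem18, 3.07 for 1700029F12Rik and 3.07 for Cgn. In Dazl, Wdr75, Tmem18 and Cgn the antisense reads exceeded the sense reads in both KO libraries and did not in either WT library. In 2 regions the sense change was larger. Ptpn13, a protein tyrosine phosphatase gene, had 57 and 53 antisense reads in WT and 13 and 18 in KO, against 10 and 1 sense reads in WT and 22 and 15 in KO (difference -3.64). Gars, the glycyl-tRNA synthetase gene, had 103 and 112 antisense reads in WT and 48 and 45 in KO, against 5 and 14 sense reads in WT and 23 and 29 in KO (-2.69).

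Genes of the exosome and of early termination were themselves lower or not called. Of 20 tested genes of the nuclear exosome and its adaptors 10 fell, the knocked-out Dis3 among them, and 0 rose. Of 17 genes of cap binding and early termination 11 fell and 0 rose, where 20.3% of all genes tested fell and 11.6% rose. Ncbp1, a cap-binding subunit, fell by 0.57 on the log2 scale and Ints11, the Integrator nuclease, by 0.68. Exosc10, the other nuclear exosome nuclease, fell by 0.40, and the core subunits Exosc5 and Exosc3 by 0.66 and 0.46. Ints1 fell by 0.35. The median log2 fold change was -0.24 for the first list and -0.22 for the second, against 0.05 for all genes tested. Members among these genes were Tent4b, Xrn2, Zc3h4, Pcf11, Ints1 and Ints4. Antisense reads upstream of Tent4b, a poly(A) polymerase that marks RNA for the exosome, were 14 and 31 in WT and 40 and 29 in KO (log2 fold change 1.43, adjusted p = 0.0137). Upstream of Xrn2, the exonuclease of termination, they were 58 and 94 against 70 and 72 (log2 fold change 0.71, edgeR adjusted p = 0.0618). Upstream of Pcf11 they were 46 and 52 against 37 and 43. Once library size is taken into account, this was a log2 fold change of 0.50 (edgeR adjusted p = 0.271).

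Markers of germ cells were called mostly lower in KO, those of macrophages higher, and the other somatic lists were mixed. Over all genes tested 20.3% fell and 11.6% rose. Of 18 pachytene spermatocyte markers 17 fell, of 20 early meiotic markers 18 fell, and of 16 spermatogonial markers 8 fell, and none of these rose. Of 18 Sertoli cell markers 8 rose, of 9 peritubular myoid markers 4 rose and 1 fell, of 8 endothelial markers 2 rose, of 8 Leydig markers 2 rose and 2 fell, and all 10 macrophage markers rose. With 8 tested genes each, the endothelial and Leydig lists are too small to set against the shares over all genes. The summed level of the pachytene list was 6533 and 6744 CPM in WT and 4322 and 3957 in KO, and that of the macrophage list 196 and 191 against 314 and 308. The part of this shift in the upstream values was not tested.

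The members on these lists are few, and 23.4% of all members rose on antisense. Antisense reads rose upstream of 3 of 4 spermatogonial members (Dazl, Kit and Zbtb16, with Etv5 not called), 3 of 6 pachytene and 3 of 5 early meiotic members. They passed the test upstream of none of 5 Sertoli, 1 Leydig and 1 myoid member, and whether the lists differ was not tested. Upstream of Syce1, a synaptonemal complex protein, antisense reads were 8 and 16 in WT and 16 and 36 in KO (log2 fold change 1.89, adjusted p = 0.00795). Hormad2, a meiotic chromosome axis protein, had 6 and 15 against 24 and 23 (1.95), and Meiob, a meiotic recombination protein, 25 and 26 against 39 and 31 (1.25). Mybl1, a regulator of pachytene genes, had 18 and 53 against 39 and 46 (1.08), with a wide spread in WT, and Tcfl5 had 16 and 27 against 24 and 33 (1.20). In Mael, of the piRNA pathway, 15 and 23 against 20 and 31 did not pass (adjusted p = 0.0592). After background subtraction the meiotic members were no longer called, although their log2 fold changes were as large or close (2.39 for Syce1, 2.59 for Hormad2, 1.29 for Meiob, 1.06 for Mybl1 and 1.23 for Tcfl5). The 3 spermatogonial members were still called there with all 4 libraries. Of the somatic members, Inhbb had 23 antisense reads in each WT library and 19 and 23 in KO, a log2 fold change of 0.65 (adjusted p = 0.296) once library size is taken into account. Vim had 10 and 25 against 26 and 16 (1.07, adjusted p = 0.116), and Gata4 6 and 27 against 19 and 17 (0.94, adjusted p = 0.188). These values lie around the members' median of 0.87. Sense reads rose upstream of Gata4, from 14 and 11 to 23 and 24, and of Acta2, from 16 and 5 to 23 and 28.

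Promoter sequence could be matched for 1197 members with at least 200 bases inside their region. In the 200 bases next to the gene the median number of CG pairs was 15, against 5 over 8462 regions with a match. GGGCGG was found on either strand in 64.2% of members and in 34.5% of all matched regions. AATAAA was found in 6.43% against 12.6%, GTAAGT in 1.34% against 4.03%, TATAAA in 4.34% against 11.1% and CCAAT in 35.4% against 32.6%. Members that rose on antisense (301 matched) and the other 896 had close values, with medians of 16 and 15 CG pairs and 67.1% and 63.3% holding GGGCGG.

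At the edge of the read threshold, the 3 members with the fewest WT reads were Tamm41, Sec22a and Spred2, whose genes had means of 1000, 1000.5 and 1001 reads. Just below it were Plcl2 (999.5 reads), Ado and Chchd6 (998 reads each). Antisense reads of Tamm41 were 13 and 7 in WT and 7 and 8 in KO, and those of Ado were 74 and 102 against 49 and 52. Once library size is taken into account, the log2 fold changes were 0.36 for Tamm41 and -0.00084 for Ado. Of the members, 2126 belong to protein-coding genes, and in 2073 the region ends 1 base from the gene as the gene table gives it. The median distance to the next gene was 27.2 kb.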

How the data were processed

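Strand-selected RNA-seq libraries from testes were used, 2 labelled WT and 2 labelled KO. The values are raw read counts made by the authors with featureCounts 1.6.4, per the file headers, over GENCODE M18 genes and over 3000 bases upstream of genes on either strand. Trimming with cutadapt, alignment with HISAT2 and the build GRCm38.p5 are named, per the submitters' processing notes, with no version for either tool. Options that keep multi-mapping reads do not appear in the recorded commands. The members, gene lists and tests were chosen with earlier results of these data known.

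Library sizes times TMM factors were taken over from the gene table, which leaves a shift of all upstream regions visible. edgeR 4.0.16 in R 4.3.3 (quasi-likelihood, robust) was fitted over all regions with at least 1 read, with Benjamini-Hochberg adjustment over all of them and a threshold of 0.05. The strand difference was fitted with library as a block. DESeq2 1.42.0 was an alternative. Each SE was derived as the absolute log2 fold change over the root of the F statistic.

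The form of the quasi-likelihood test was chosen after the data were seen. The planned test did not name a form. In the earlier form, the prior degrees of freedom were infinite for every region of both strands, so that a region's own spread was ignored and Gm10800 was called. The form with adjusted deviances was used instead for the single strands. Both forms, robust on and off, and 4 filters on low counts had been run first, 16 fits a strand, with their calls seen. These gave 333 to 533 antisense rises and 0 to 97 sense rises among the members, against 505 and 44 as reported. The adjusted form could not be computed for the strand difference, which uses the earlier form.

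Background was the interquartile mean (a fraction of 0.25 dropped at each end) over isolated regions of genes with a mean below 1 read. It was subtracted from each count, and the result was rounded and set to 0 where negative. Levels are interquartile means over regions. On simulated data the tests recovered 50% of 2-fold and 100% of 4-fold antisense changes, and 40% and 100% of sense changes. Only regions with a mean of at least 20 reads were given a change there. Among the members, 961 reached this mean on antisense and 396 on sense, and recovery at fewer reads was not tested. Regions were named by a rule on size of change, reads and list membership. In both antisense and sense rises up to 8 and in falls up to 4 were named, with a mean of at least 20 reads and no overlap in CPM. Motifs were searched in the 200 bases nearest the gene and sequences were trimmed to the region, in place of the planned 250 and 3000 bases, because no genome sequence was used here. Of the upstream regions, 811 have no row in the gene table, and they were in the fits but could not be members. Some regions that the tests called are not reported here. The 2 libraries a group limit precision.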

Additional observations from a re-analysis of the deposited data

How the results depend on the processing

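Percentages are of the members higher or lower in KO, against 23.4% and 0.463% on antisense and 2.04% and 0.278% on sense as reported. The cause of each change was not tested unless fewer regions or libraries were fitted. On antisense, DESeq2 gave 10.5% and 0.139%, scaling on the upstream reads 0.37% and 1.85% with a reversed median log2 fold change of -0.11, and background subtraction 2.82% and 0.0463% with a median of 0.72. A mean of at least 20 reads gave 0.833% lower and a median of 0.76, the earlier form 0.278% lower, and 20 kb free of genes 0.288% lower. On sense, DESeq2 gave 0.0926% and 0.185%, scaling on the upstream reads 0% and 1.39% with a reversed median of -0.23, and background subtraction 0% and 0% with a median of 0.23. filterByExpr gave 0.139% and 0.0463%, a mean of at least 20 reads 0.417% higher and a median of 0.11, and 20 kb free of genes 0.0719% lower. The sense change of Zc3h4 reversed to -0.017 with scaling on the upstream reads.

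For the strand difference, as reported 0.602% had the larger change on antisense and 0.0926% on sense. Background subtraction gave 0% and 0%, a mean of at least 20 reads 1.67% and 0.417%, filterByExpr 0% on sense and 20 kb free of genes 0.144% on sense.

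Leaving out one library in turn gave 6.3% to 29.2% higher and 0% to 0.417% lower on antisense with medians of 0.77 to 0.98. On sense it gave 0.139% to 12.9% higher and 0.0463% to 0.37% lower with medians of 0.59 to 0.84. For the strand difference it gave 0.0463% to 1.11% on antisense and 0% to 0.278% on sense. The lone library of a group is assumed to vary like the other group.

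After background subtraction the calls depended on the form of the test. The 61 antisense rises (2.82%) became 183 (8.47%) in the earlier form, and 4 sense rises (0.185%) appeared where the adjusted form gave 0. Without any one library the adjusted form called 0% of members higher on antisense by edgeR, with 278 to 410 members past an unadjusted p of 0.05. Those fits have 1 residual degree of freedom.

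With a replicate block, 17.4% rose on antisense, 0.139% fell, and 3.06% rose on sense, and after background subtraction 0% rose on antisense (414 members at an unadjusted p under 0.05). Same-numbered libraries correlated in their deviations at 0.02 on antisense and 0.06 on sense. With 2 libraries a group these values cannot show whether the numbers pair the samples. Without background subtraction the KO over WT level ratios were 1.9 on antisense and 1.69 on sense. Leaving out one library gave 1.25 to 1.33 for the net sense ratio and 1.69 to 1.82 for the net antisense ratio.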

Other observations

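Among the other members that rose on antisense after background subtraction were regions of a broad range of genes. Upstream of Snapc3, a factor of small nuclear RNA transcription, antisense reads were 24 and 20 in WT and 79 and 74 in KO (log2 fold change 2.58 as counted). Btbd1 had 78 and 84 against 190 and 196 (2.04). Upstream of Malat1, a long noncoding RNA gene, the reads were 19 and 17 against 51 and 54 (2.32). Ccne2 was higher on antisense (66 and 70 against 92 and 100, log2 fold change 1.28) and lower on sense. Smarca5, a chromatin remodeller, had 199 and 294 against 286 and 276, so its raw counts overlapped and its call rests on the scaling to gene reads.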
